A study of Mus musculus with 12 samples.

Results

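The 10 genes described here take up, carry, export or sense bile acids: Slc10a2, Fabp6, Slc51a, Slc51b, Gpbar1, Abcb1a, Abcb1b, Abcc2, Abcc3 and Fgf15. They were picked by symbol, as a named set, from the 54532 genes counted in each of 12 mouse colon RNA-seq libraries. Each symbol matched 1 gene, and 9 of the 10 passed the filter on low counts that left 17658 genes for testing. Fgf15 did not.

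Bile acids are made in the liver, released into the gut to emulsify fat and taken back mainly by enterocytes at the end of the small intestine. The sodium-dependent transporter Slc10a2 brings them in from the lumen, Fabp6 binds them in the cytosol, and the paired subunits Slc51a and Slc51b release them toward the portal blood. Inside the cell they activate the nuclear receptor FXR (gene Nr1h4), which switches on the hormone gene Fgf15, and at the cell surface they activate the receptor encoded by Gpbar1. The ABC pumps Abcb1a, Abcb1b, Abcc2 and Abcc3 export a wider range of compounds, bile acid conjugates among them. The colon expresses parts of this system, and the level of several members is known to change along its length.

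The libraries came from male C57BL/6 mice that arrived at 6 weeks of age and had 1 week of adaptation, with 3 mice in each of 4 groups and no genetic change in any of them. Con mice received no dextran sulfate sodium (DSS), an agent that injures the colon epithelium and is used as a chemical model of ulcerative colitis. DSS mice drank 3% DSS for 5 days. UA+DSS mice drank the same DSS and received ursolic acid (UA, a plant triterpenoid) by gavage at 200 mg/kg from 1 day before DSS, whereas DSS+UA mice received it from 3 days after DSS began, so that the UA groups differ in the start of dosing. They also differ in its length, for which the sources used here do not give a single value. The labels call the Con mice untreated, whereas the methods give all mice a gavage. The stretch of colon that was sampled is not given in the sources used here.

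The libraries held between 15566216 and 19498383 counts. Because genes that change along the colon differed between libraries, a colon position score was computed for each, as the mean log2 CPM (counts scaled to a library of 1000000) of 5 Hox genes expressed toward the rectum minus that of 6 Hox genes expressed toward the caecum. The score ran from -5.70 to -4.16 in UA+DSS, from 4.12 to 5.06 in DSS+UA and from 0.366 to 3.10 in DSS. In Con it was -3.02, -1.83 and, in Con 1, 5.52. The score comes from the same RNA as the members, and whether DSS or UA alters the Hox genes themselves was not tested. Position and treatment differed together between the groups. The calls (adjusted p below 0.05) of the members and of other bile acid pathway genes are therefore given below with and without the score as a covariate. DSS 2 and DSS+UA 3 held small intestine transcripts: Apoa1, an apolipoprotein of small intestine enterocytes, had 15677 and 2993 counts there and at most 58 in any other library. Sis, the sucrase-isomaltase of the small intestine brush border, had 2846 and 815 counts in those libraries, 45, 519 and 81 in UA+DSS and at most 6 in the other 7. UA+DSS 2, with the 519, was also the highest library for Slc10a2, Slc51a and Abcb1a, and the part of small intestine in the UA+DSS values was not tested. Lct went with Apoa1, at 1223 counts in DSS 2 and 280 in DSS+UA 3. The whole list of 11 small intestine markers did not single out DSS+UA 3. Its sum was 688 CPM there, against 2871 in DSS 2, 1036 in Con 2, 637 in Con 3 and 518 to 728 in UA+DSS. Fabp2, on that list, had 116 CPM in DSS+UA 3 against 952 in Con 2, 572 in Con 3 and 417 to 577 in UA+DSS. DSS 3 held pancreatic transcripts, with 39056 counts of the lipase gene Pnlip against at most 28 elsewhere. In the colon libraries overall the epithelial markers were present throughout, with 0 of 10 at a count of 0 in any library.

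For the ileal uptake and export genes, the sequence just upstream of the start sites is shown for Fabp6 and Slc51a because their highest group means fell in different groups. Stretches of RefSeq on GRCm38.p6 were available for 8 members, Abcc3 and Fgf15 having no entry. The windows of 250 bases before to 50 after the RefSeq start were searched on both strands for the FXR inverted repeat AGGTCANTGACCT with up to 2 mismatches, for the HNF4 site CAAAGTCCA with up to 1, and for the NR5A2 site CAAGGTCA and the GATA site AGATAA with none. Capitals mark the matches, and each line reads 5′ to 3′ on the strand of the gene, ending at the base before the first annotated exon. The Fabp6 stretch lies at chr11:43601563-43601812 on the minus strand and that of Slc51a at chr16:32487880-32488129 on the minus strand.
Fabp6: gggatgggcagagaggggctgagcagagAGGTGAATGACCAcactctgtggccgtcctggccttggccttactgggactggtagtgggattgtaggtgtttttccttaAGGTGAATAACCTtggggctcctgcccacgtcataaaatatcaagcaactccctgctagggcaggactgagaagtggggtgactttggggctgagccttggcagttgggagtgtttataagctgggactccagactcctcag
Slc51a: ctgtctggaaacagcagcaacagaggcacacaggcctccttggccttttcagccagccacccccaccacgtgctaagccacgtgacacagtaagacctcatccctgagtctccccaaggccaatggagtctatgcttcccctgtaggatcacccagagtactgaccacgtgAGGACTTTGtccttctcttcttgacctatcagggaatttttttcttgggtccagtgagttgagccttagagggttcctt
The Fabp6 stretch held the FXR repeat in 2 places, with 2 mismatches each, where 1.14% of 32851 promoters held any match at this stringency. The Slc51a stretch held the HNF4 site on the opposite strand with 1 mismatch, against 8.47% of promoters. Of the other windows, that of Abcb1a held an HNF4 match. That window lies at a RefSeq start 92986 bases upstream of the gene start given below. The NR5A2 site, held by 1.56% of promoters, and the GATA site, held by 11.2%, did not occur in the members' windows. These are matches of letters, and binding was not measured.

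Levels can be compared between genes per kilobase of exon. On that scale Abcb1a led in Con, with a mean of 114 CPM per kb, followed by Abcc3 with 35.9 and Slc51b with 35.6. Fabp6 followed with 7.72, Slc10a2 with 1.19, Slc51a with 0.858, Gpbar1 with 0.478, Abcb1b with 0.323 and Abcc2 with 0.196. The library values of Abcb1a stood clear of the rest and those of Slc51b stood clear of Fabp6, whereas all other neighbours in this order overlapped. In UA+DSS the order changed below Abcb1a, at 146 CPM per kb, with Slc51b at 90.7, Abcc3 at 45.2, Slc10a2 at 42.3 and Slc51a at 27.4. Slc10a2 and Slc51a thus came near Abcc3 in that group but stayed below Abcb1a, whereas in Con, at 1.19 and 0.858, they lay far below both. Slc51b was level with Abcc3 in Con already. The pumps Abcb1b and Abcc2 stayed low in UA+DSS, at 0.430 and 0.223 CPM per kb. All values below are CPM on effective library sizes unless another scale is named.

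**Figure D1:**
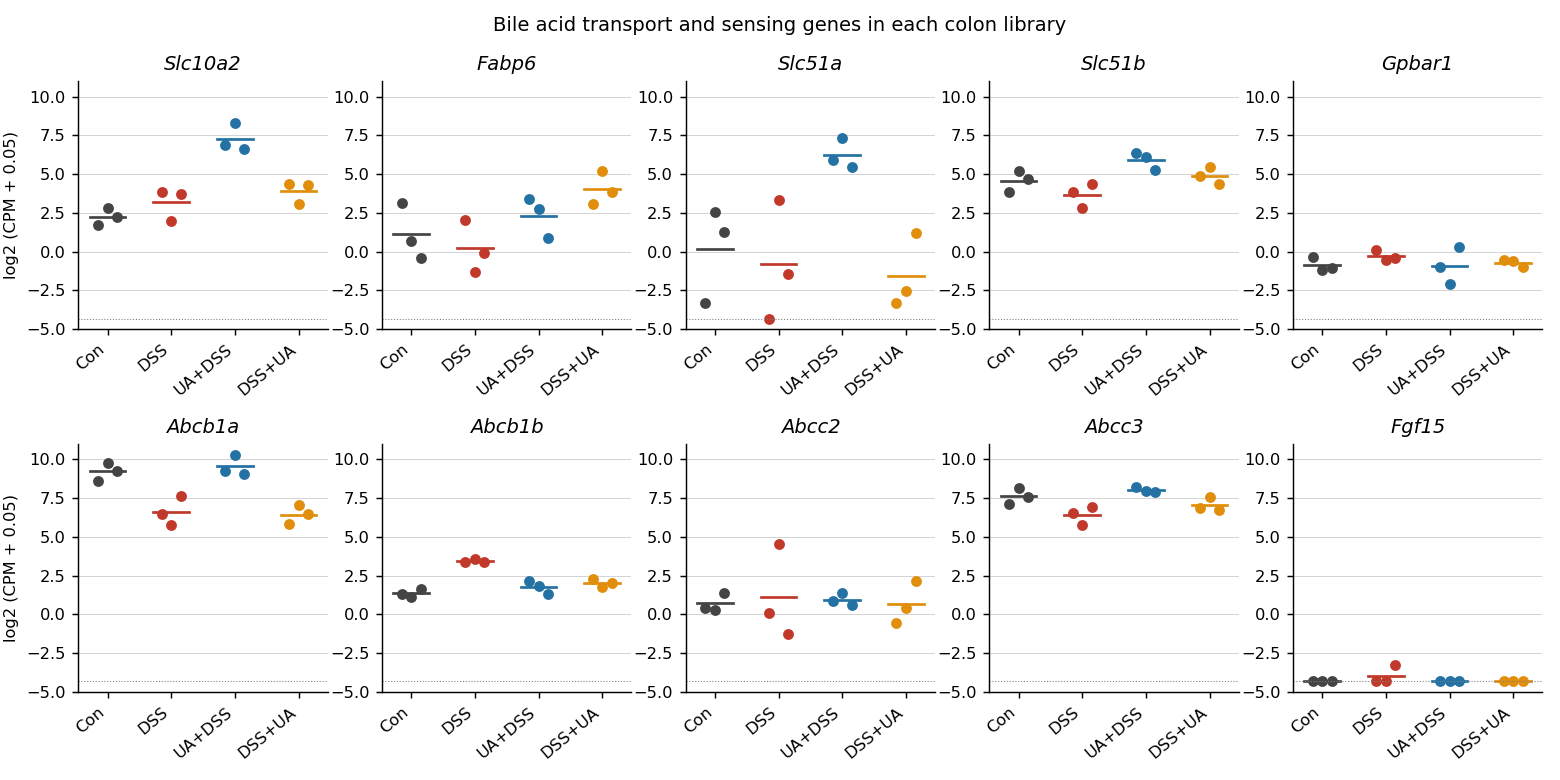
Level of each of the 10 genes in every library as log2 (CPM + 0.05), by group. Points are single mice, the short line is the mean of the 3 plotted values, and the dotted line marks a count of 0. Slc10a2 and Slc51a stand highest in all 3 UA+DSS libraries, Abcb1b in all 3 DSS libraries, and Fgf15 lies on the dotted line in every library but DSS 3.

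Slc10a2, the uptake transporter (ENSMUSG00000023073, chr8:5083219-5105351, minus strand, GRCm38), was measured at 3.26, 6.99 and 4.60 CPM in Con and at 14.0, 3.86 and 13.4 in DSS. It reached 119, 308 and 99.2 CPM in UA+DSS and 20.6, 8.23 and 19.2 in DSS+UA. All 3 UA+DSS libraries lay above every other library, and DSS and Con overlapped. UA+DSS exceeded DSS by 4.07 ± 0.64 on the log2 scale, about 16.8-fold (edgeR quasi-likelihood test, adjusted p = 0.00902). UA+DSS also exceeded DSS+UA by 3.45 ± 0.62 on the log2 scale (edgeR adjusted p = 0.00874). Against Con the difference was 5.15 ± 0.68, the widest fold of this gene, yet the edgeR adjusted p was 0.116, in a comparison where 1 of all genes tested passed. There the adjusted p over the alternatives ran from 2.28e-16 with DESeq2 to 0.754 with the position score, and without DSS 2 it was 0.0459. DSS+UA differed from DSS by 0.62 ± 0.57 (edgeR adjusted p = 0.495) and from Con by 1.70 ± 0.60 (edgeR adjusted p = 0.0704), and DSS from Con by 1.08 ± 0.59 (edgeR adjusted p = 0.195).

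Fabp6, the cytosolic bile acid binding protein (ENSMUSG00000020405, chr11:43596049-43601540, minus strand), followed another order. It stood at 8.84, 1.55 and 0.695 CPM in Con and at 3.99, 0.351 and 0.898 in DSS. In UA+DSS it was 10.3, 6.56 and 1.75 CPM, and in DSS+UA 8.37, 36.9 and 14.3. The DSS+UA libraries were all above the DSS libraries, and they overlapped with Con 1 and UA+DSS 1. DSS+UA exceeded DSS by 3.50 ± 1.15 on the log2 scale, with an edgeR adjusted p of 0.0789, which DESeq2 moved to 0.00362. Against Con the difference was 2.42 ± 1.09 (edgeR adjusted p = 0.137), and without Con 1 it passed at 0.0442. UA+DSS exceeded DSS by 1.81 ± 1.10 (edgeR adjusted p = 0.271). Fabp6 had its highest group mean in DSS+UA, at 19.9 ± 15.1 CPM (SD, n = 3), whereas Slc10a2, which acts before it in uptake, had its highest in UA+DSS. Between the UA groups Fabp6 differed by -1.68 ± 1.06 in UA+DSS against DSS+UA (edgeR adjusted p = 0.289). With the position score this turned to 1.91 ± 1.66 (edgeR adjusted p = 0.654). No comparison of Fabp6 passed the edgeR test over all libraries, with or without the score.

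Slc51a, the first subunit of the basolateral exporter (ENSMUSG00000035699, chr16:32474504-32487879, minus strand), had counts of 1, 105 and 44 in Con, 0, 196 and 6 in DSS, 946, 2540 and 826 in UA+DSS, and 1, 2 and 40 in DSS+UA. These correspond to 0.0517, 5.82 and 2.35 CPM in Con, 0, 9.82 and 0.317 in DSS, 60.7, 159 and 43.9 in UA+DSS, and 0.0527, 0.124 and 2.22 in DSS+UA. The UA+DSS libraries stood apart from all others, and the highest value of DSS and of DSS+UA came from DSS 2 and DSS+UA 3, the libraries that held small intestine transcripts. UA+DSS exceeded DSS+UA by 6.76 ± 1.90 on the log2 scale (edgeR adjusted p = 0.0365). It exceeded DSS by 4.70 ± 1.68, with an edgeR adjusted p of 0.0747. Without both libraries that held small intestine transcripts these differences became 9.88 ± 1.89 (edgeR adjusted p = 0.0312) and 9.10 ± 1.77 (edgeR adjusted p = 0.0332). This exclusion was chosen after seeing the data and took out the highest Slc51a library of DSS and of DSS+UA. It kept UA+DSS 2, which had 519 counts of Sis and the most Slc51a counts, so wider differences follow from the choice of libraries. The call against DSS+UA was lost without any 1 of the UA+DSS or DSS+UA libraries or without Con 3, with adjusted p up to 0.120. Against Con it was 32.1-fold higher (edgeR adjusted p = 0.329). Pcyt1a, on the opposite strand, shares 567 exonic bases with Slc51a, and the kit that the labels name does not mark strand. Shorter or other such overlaps exist for Slc51b (Rasl12, 91 bases), Abcb1a (Gm42686, 553), Abcb1b (Gm5106, 143) and Fgf15 (Gm26793, 761).

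Slc51b, the second subunit (ENSMUSG00000053862, chr9:65412714-65422955, minus strand), stood at 14.2, 35.9 and 25.6 CPM in Con and at 14.5, 7.06 and 20.1 in DSS. It was 83.9, 70.1 and 39.0 CPM in UA+DSS and 29.0, 44.1 and 20.3 in DSS+UA. All UA+DSS values exceeded all Con and DSS values, and UA+DSS 3 fell below DSS+UA 2. The rise over DSS was 2.21 ± 0.47 on the log2 scale, about 4.63-fold (edgeR adjusted p = 0.0151). The difference of DSS+UA from DSS was 1.16 ± 0.46 (edgeR adjusted p = 0.121), and that of UA+DSS from Con 1.35 ± 0.46 (edgeR adjusted p = 0.325). The exporter needs both subunits, and their balance was far from even. Per kb of exon, Slc51a reached 0.160, 0.502 and 0.249 of Slc51b in UA+DSS and at most 0.0359 in Con and 0.0242 in DSS+UA. In DSS the ratio was 0 and 0.00349 in DSS 1 and DSS 3 and 0.308 in DSS 2. Slc51b was therefore present in every library, including those in which its partner gave 0 to 2 counts.

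The sensing genes were low. Gpbar1, the surface receptor (ENSMUSG00000064272, chr1:74278550-74279624, plus strand), gave 3 to 22 counts per library. Its mean was 0.513 ± 0.184 CPM in Con (SD, n = 3), 0.783 ± 0.198 in DSS, 0.602 ± 0.509 in UA+DSS and 0.565 ± 0.105 in DSS+UA. The groups overlapped, and none of the 6 comparisons passed the edgeR test, the smallest adjusted p being 0.452 for DSS against Con, where the difference was 0.60 ± 0.57 on the log2 scale. Fgf15, the hormone that tells the liver to make less bile acid (ENSMUSG00000031073, chr7:144896531-144900953, plus strand), gave 1 count in DSS 3 and 0 in the other 11 libraries. A count of 0 allows up to 3 counts, or 0.144 to 0.192 CPM per library, with counting error only. A change of Fgf15 was thus not detectable at this depth, and it gave 0 counts in the UA+DSS libraries, in which Slc10a2 and Slc51a were highest.

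The paralogous pumps Abcb1a and Abcb1b moved in opposite directions in DSS against Con and in UA+DSS against DSS. Abcb1a, the main P-glycoprotein of gut epithelium (ENSMUSG00000040584, chr5:8660077-8748575, plus strand), stood at 389, 879 and 612 CPM in Con and at 90.1, 53.6 and 196 in DSS. It stood at 619, 1249 and 540 CPM in UA+DSS and at 55.8, 131 and 88.5 in DSS+UA. Con and UA+DSS overlapped, DSS and DSS+UA overlapped, and no library of the first pair fell within the range of the second. DSS lowered Abcb1a by 5.54-fold, a log2 change of -2.47 ± 0.54 (edgeR adjusted p = 0.00909). UA+DSS exceeded DSS by 2.83 ± 0.55 (edgeR adjusted p = 0.0122) and DSS+UA by 3.13 ± 0.56 (edgeR adjusted p = 0.00826). DSS+UA remained below Con, with a log2 change of -2.77 ± 0.55 (edgeR adjusted p = 0.00992), and its difference from DSS was -0.30 ± 0.51 (edgeR adjusted p = 0.723). UA+DSS differed from Con by 0.36 ± 0.51 (edgeR adjusted p = 0.781).

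Abcb1b, the second P-glycoprotein gene (ENSMUSG00000028970, chr5:8798147-8866315, plus strand), was about 4.17-fold higher in DSS than in Con. It gave 2.48, 2.16 and 3.10 CPM in Con, 10.2, 12.0 and 10.2 in DSS, 4.36, 3.56 and 2.39 in UA+DSS and 4.84, 3.40 and 3.94 in DSS+UA. The 3 DSS libraries lay above the other 9, and the remaining groups were close together. The rise in DSS was 2.06 ± 0.29 on the log2 scale (edgeR adjusted p = 0.00223). UA+DSS was below DSS by a log2 change of -1.65 ± 0.28 (edgeR adjusted p = 0.0099), and DSS+UA by -1.41 ± 0.28 (edgeR adjusted p = 0.0229). Abcb1b was the only member that passed in both comparisons of a UA group with DSS. The difference between the UA groups was -0.24 ± 0.28 (edgeR adjusted p = 0.569). Per kb of exon the ratio of Abcb1a to Abcb1b was 228, 592 and 288 in Con and 207, 511 and 329 in UA+DSS. It was 12.9, 6.49 and 27.99 in DSS and 16.8, 56.0 and 32.8 in DSS+UA. The ratio therefore separated Con and UA+DSS from DSS and DSS+UA, with DSS+UA on the side of DSS although its Abcb1b level was closer to that of Con. The genes share sequence: 16.3% of the 50-base words of Abcb1a occur in Abcb1b, and 11.1% of those of Abcb1b in Abcb1a, so that the counts of the scarcer gene depend on how shared reads were assigned, which is not given in the sources used here.

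Abcc3, an exporter of conjugates on the basolateral side (ENSMUSG00000020865, chr11:94343295-94392997, minus strand), moved with Abcb1a but less far. It stood at 139, 288 and 186 CPM in Con, 91.5, 53.6 and 123 in DSS, 291, 245 and 237 in UA+DSS and 114, 192 and 107 in DSS+UA. DSS lay below Con and below UA+DSS without overlap. DSS lowered it by 2.29-fold, a log2 change of -1.19 ± 0.35 (edgeR adjusted p = 0.0279), a call that was lost without Con 2 (0.112), DSS 1 (0.0696) or DSS 2 (0.0734). UA+DSS exceeded DSS by 1.53 ± 0.35 (edgeR adjusted p = 0.0171). Without both libraries that held small intestine transcripts neither call passed, with edgeR adjusted p of 0.0839 and 0.0563. DSS+UA differed from DSS by 0.62 ± 0.34 (edgeR adjusted p = 0.248), and UA+DSS from DSS+UA by 0.91 ± 0.34 (edgeR adjusted p = 0.091).

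Abcc2, an exporter of conjugates on the luminal side (ENSMUSG00000025194, chr19:43782192-43840740, plus strand), was low except where small intestine transcripts were found. It gave 1.29, 1.16 and 2.57 CPM in Con, 1.01, 23.1 and 0.370 in DSS, 1.73, 2.50 and 1.49 in UA+DSS and 0.632, 1.30 and 4.38 in DSS+UA. The highest library of all was DSS 2 and the next was DSS+UA 3. DSS differed from Con by 2.28 ± 1.24 on the log2 scale (edgeR adjusted p = 0.19), and without DSS 2 the sign turned, to -1.26 (edgeR adjusted p = 0.273). None of the 6 comparisons of Abcc2 passed. Slc10a2 and Fabp6, which in the small intestine belong to its end, were the lowest of their group in DSS 2, at 3.86 and 0.351 CPM, and in the middle of their group in DSS+UA 3, at 19.2 and 14.3 CPM.

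**Figure D2:**
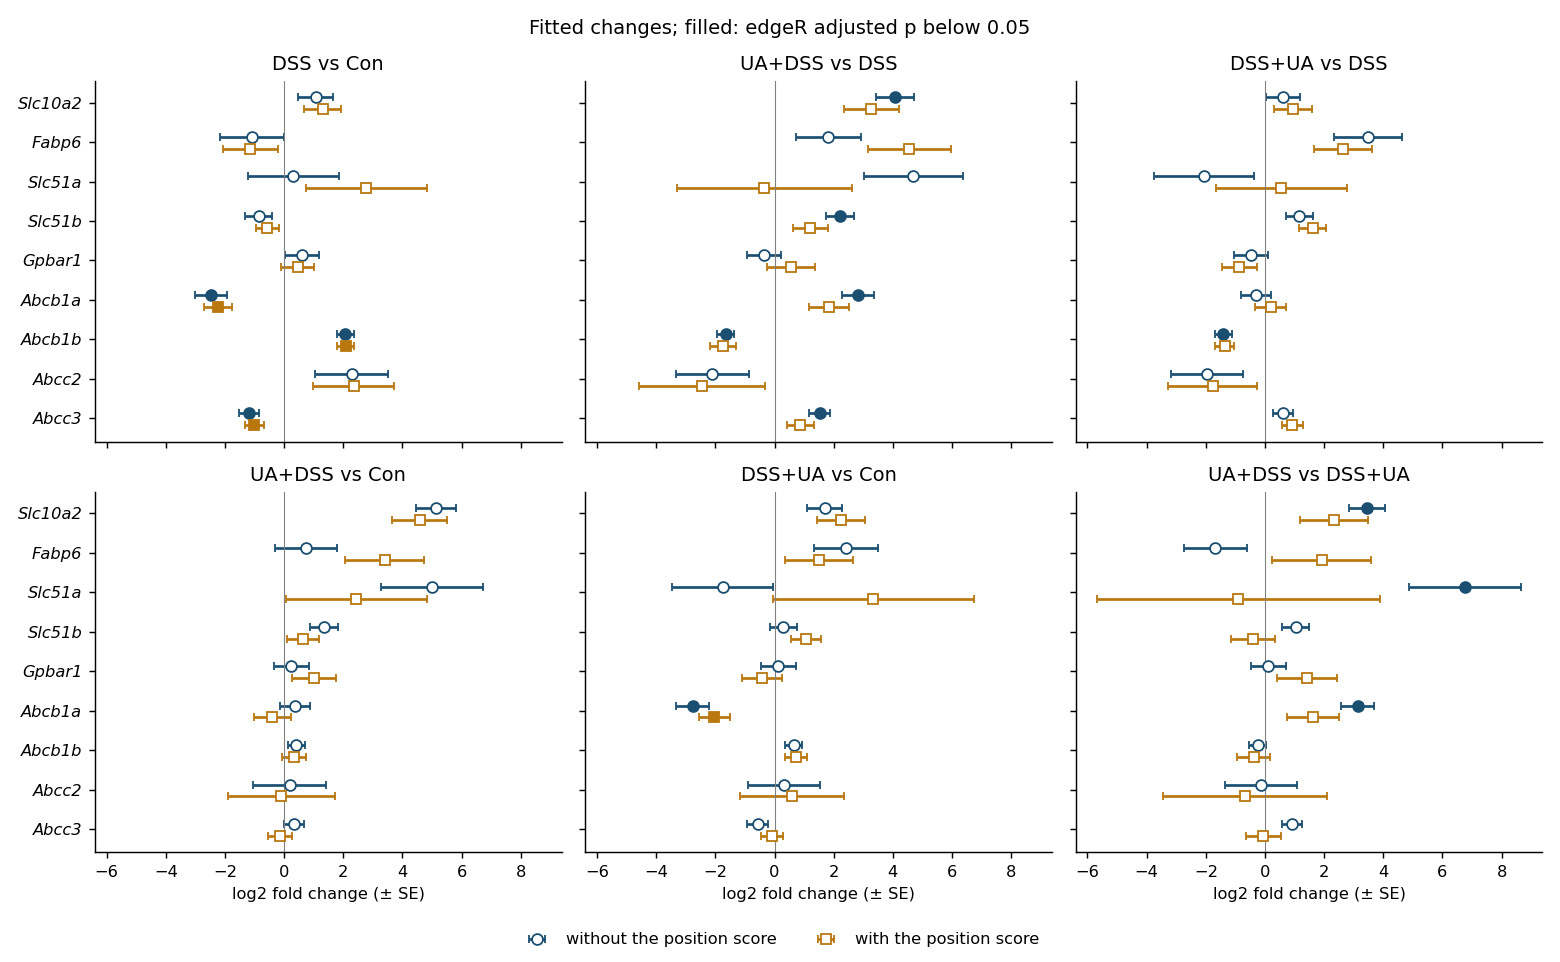
Fitted log2 fold change (± SE) of the 9 tested members in the 6 comparisons, without (blue circles) and with (ochre squares) the colon position score as a covariate. Filled symbols have an edgeR adjusted p below 0.05; with the score, the filled symbols are Abcb1a, Abcb1b and Abcc3 in DSS against Con and Abcb1a in DSS+UA against Con.

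Counted together, 3 of 9 tested members were called in DSS against Con, 1 higher and 2 lower, where 26.5% of all tested genes were called. In UA+DSS against DSS 5 of 9 were called, 4 higher and 1 lower, against 18.7% of all tested genes, and the members' median log2 difference was 1.81 against -0.02 over all tested genes. In DSS+UA against DSS 1 of 9 was called against 7.54% of all tested genes. In UA+DSS against Con 0 of 9 were called by edgeR and limma-voom, against 0.00566% of all tested genes in edgeR. In edgeR 3 members had an unadjusted p under 0.05, as had 2132 of all 17658 tested genes. DESeq2 called 1 there, against 1.16% of its tested genes. In DSS+UA against Con 1 of 9 was called, lower, against 18.1%. Between the UA groups 3 of 9 were called, all higher in UA+DSS, against 16.8%. Comparisons with a common group share its libraries, so these counts are not independent of each other.

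The position score moved with several of these results. Among the Con mice, which received no DSS, Con 1 had the rectal score, and there Slc51a gave 1 count against 105 and 44 in Con 2 and Con 3. Abcb1a was 389 CPM in Con 1 against a mean of 745 in the other Con libraries, Slc51b 14.2 against 30.8, Abcc3 139 against 237, and Slc10a2 3.26 against 5.79. Fabp6 went the other way, at 8.84 CPM against 1.12. With 1 library on one side these are values with no test. The score was then tested in a fit over all 12 libraries with the groups as terms. There 0 of 9 members were called by edgeR, limma-voom or DESeq2, against 1.27%, 1.84% and 4.0% of their tested genes. In edgeR 1 member had an unadjusted p under 0.05, as had 3272 of all 17658 tested genes. That member was Fabp6, at 0.37 ± 0.15 log2 units per unit of score toward the rectum (edgeR adjusted p = 0.22). Slc51a had -0.77 ± 0.41 (edgeR adjusted p = 0.351), Slc51b -0.15 ± 0.07 (0.28), Abcb1a -0.15 ± 0.08 (0.338) and Slc10a2 -0.11 ± 0.11 (0.607). Without DSS 2 and DSS+UA 3, an exclusion chosen after seeing the data, Slc51a had -0.98 ± 0.10 and was called (edgeR adjusted p = 0.00561).

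**Figure D3:**
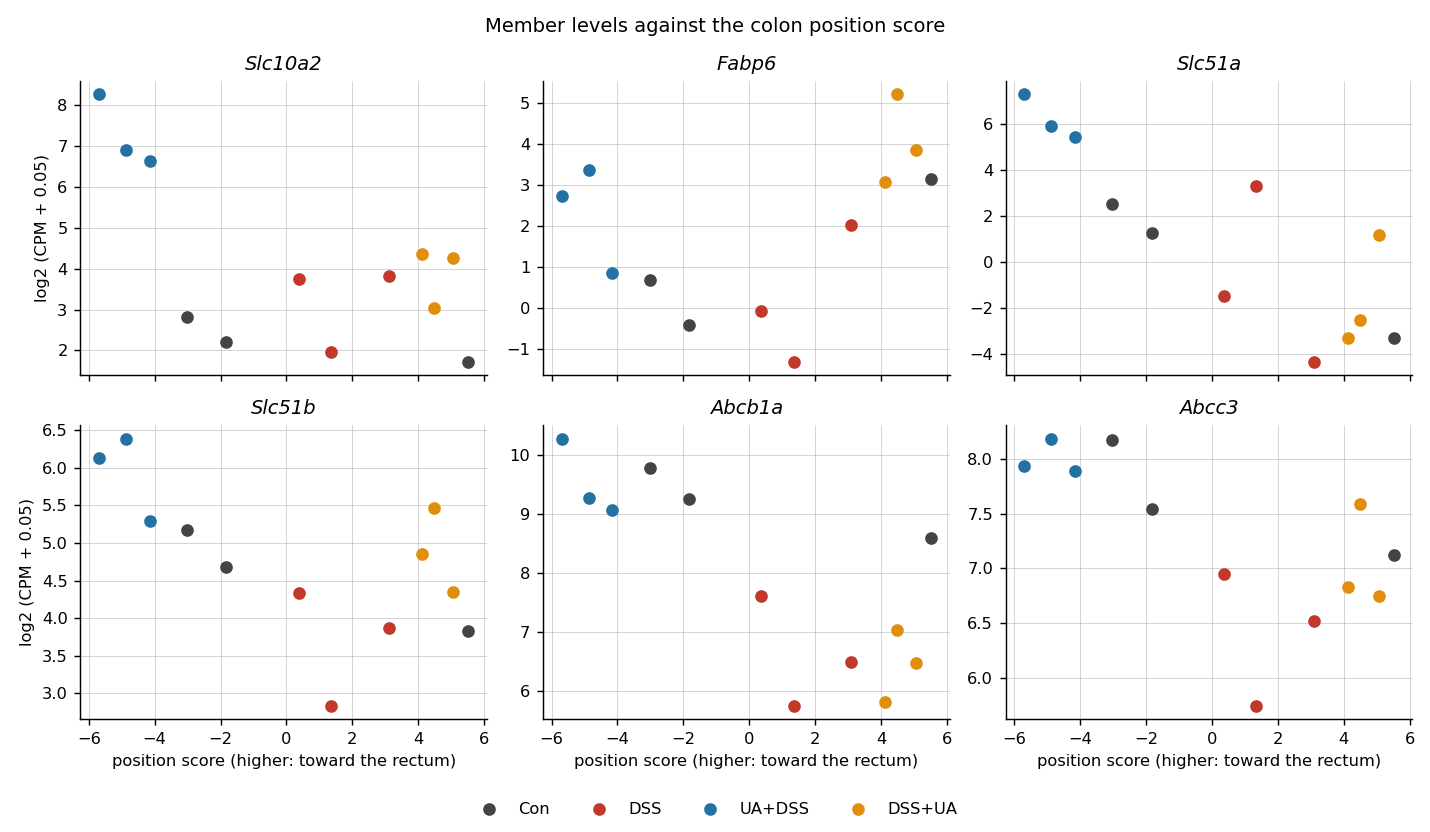
Level of 6 members as log2 (CPM + 0.05) against the colon position score of each library, where higher scores lie toward the rectum. Points are single mice, coloured by group; the UA+DSS libraries fill the left end and DSS+UA the right, Con 1 sits at 5.52 apart from the other Con mice, and Slc51a falls from left to right except in DSS 2 and DSS+UA 3.

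With the score as a covariate, the DSS calls stood: Abcb1b rose by 2.08 ± 0.30 (edgeR adjusted p = 0.00283), Abcb1a changed by -2.24 ± 0.48 (0.00979) and Abcc3 by -1.01 ± 0.32 (0.0362). These were 3 of 9 members, and this fit called 30.5% of all tested genes in DSS against Con, against 26.5% without the score. Abcb1a also stayed below Con in DSS+UA, by -2.03 ± 0.54 (edgeR adjusted p = 0.0384). It was the 1 member called there, against 12.3% of all tested genes. The calls of the UA groups against DSS, and between them, were lost. In UA+DSS against DSS 0 of 9 members were called by edgeR, and in this fit 0.017% of all tested genes were called. There 4 members had an unadjusted p under 0.05, as had 3818 of all 17658 tested genes. Slc10a2 still differed by 3.28 ± 0.92 (edgeR adjusted p = 0.122), Abcb1a by 1.83 ± 0.68 (0.177), Abcb1b by -1.75 ± 0.44 (0.104), Slc51b by 1.21 ± 0.59 (0.263) and Abcc3 by 0.87 ± 0.46 (0.289). Slc51a turned to -0.34 ± 2.96 (0.958). In DSS+UA against DSS Abcb1b differed by -1.36 ± 0.31 (edgeR adjusted p = 0.0615) and Abcb1a by 0.20, where it had -0.30 without the score. Between the UA groups, whose scores lie farthest apart, 0 of 9 members and 0 of all tested genes were called. There Slc10a2 differed by 2.33 ± 1.14 (edgeR adjusted p = 0.426), Abcb1a by 1.63 ± 0.87 (0.456) and Slc51a by -0.90 ± 4.78 (0.957). Fabp6 in UA+DSS against DSS moved from 1.81 to 4.55 ± 1.40 (edgeR adjusted p = 0.139). For the UA+DSS group, treatment and position cannot be told apart with these libraries, since all of its scores lie below those of every other library.

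Cell type markers also moved with some members. In bulk tissue, fewer cells of a type and less RNA per cell cannot be told apart. The counts of called markers below stand against shares of all tested genes. These shares were 26.5% in DSS against Con, 18.7% in UA+DSS against DSS and 7.54% in DSS+UA against DSS. The summed level of 10 epithelial markers ran from 7840 to 12623 CPM in DSS and from 14023 to 19543 in Con, with 2 of 10 called lower in DSS, beside the lower Abcb1a and Abcc3. In DSS+UA, where Abcb1a was as low as in DSS, the epithelial sum was 16360 to 25619 CPM, above that of DSS in all 3 libraries. The sum of 9 macrophage markers, none of them at 0 in any library, was 1473 to 3822 CPM in DSS against 222 to 546 in Con, 416 to 911 in UA+DSS and 580 to 1628 in DSS+UA. Of these markers 8 of 9 rose in DSS and 5 of 9 fell in UA+DSS against DSS, as Abcb1b did. In DSS+UA against DSS 0 of these 9 were called, whereas Abcb1b was called lower. The sum of 8 endothelial markers was 306 to 470 CPM in DSS against 189 to 240 in Con, 158 to 183 in UA+DSS and 116 to 127 in DSS+UA, with 5 of 8 called higher in DSS than in Con, 7 of 8 lower in UA+DSS than in DSS and 8 of 8 lower in DSS+UA than in DSS. The sum of 6 neutrophil markers was 863 to 17231 CPM in DSS, with the top value in DSS 2, against 9.26 to 114 in Con, 26.6 to 116 in UA+DSS and 397 to 998 in DSS+UA. Of these markers 5 of 6 rose in DSS, 6 of 6 fell in UA+DSS against DSS and 0 of 6 were called in DSS+UA against DSS, and the defining markers S100a8, S100a9, Cxcr2 and Retnlg were each at 0 in at least 1 library. The part of macrophages, endothelium and neutrophils in the Abcb1b values was not tested.

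Other genes of the pathway, 35 in all from a list of regulators, receptors, enzymes and transporters, gave 25 that passed the filter. In DSS against Con 3 were called higher and 4 lower, 7 of 25 where 26.5% of all tested genes were called. Vdr, the vitamin D receptor, which also binds the bile acid lithocholic acid, was lower by a log2 change of -1.98 ± 0.39 (edgeR adjusted p = 0.00575), with a mean of 84.1 ± 41.1 CPM in DSS and 332 ± 64.9 in Con (SD, n = 3). Cyp7b1, an oxysterol hydroxylase of the alternative bile acid pathway, rose by 3.42 ± 0.50 (edgeR adjusted p = 0.00239), and S1pr2, a receptor for sphingosine phosphate and conjugated bile acids, by 1.84 ± 0.32 (edgeR adjusted p = 0.00375). In UA+DSS against DSS 7 of the 25 were higher and 4 lower, against 18.7% of all tested genes. Without UA+DSS 2, 0 of the 25 were called, against 1.0% of all tested genes. Nr5a2, a nuclear receptor that regulates bile acid genes, was higher by 1.92 ± 0.34 (edgeR adjusted p = 0.00998) and Vdr by 2.03 ± 0.39 (0.0113). Nr1h4, which encodes FXR, was higher by 1.77 ± 0.34 (0.0113), at 159, 220 and 126 CPM in UA+DSS against 46.6, 30.3 and 71.3 in DSS. Its target Fgf15 was at 0 in those UA+DSS libraries. With the position score, 6 of the 7 calls in DSS against Con remained, where that fit called 30.5% of all tested genes. Of the 11 calls in UA+DSS against DSS 0 remained, where the same fit called 0.017% of all tested genes. There 7 of the 25 had an unadjusted p under 0.05, as had 3818 of all 17658 tested genes. Nr1h4 differed there by 1.17 ± 0.44 (edgeR adjusted p = 0.182).

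In DSS+UA against DSS 0 of the 25 were called by edgeR, 1 by limma-voom and 3 by DESeq2, which called 7.54%, 6.47% and 9.64% of their tested genes there. In edgeR 8 of the 25 had an unadjusted p under 0.05, as had 5274 of all 17658 tested genes. In UA+DSS against Con 0 of 25 were called by edgeR and limma-voom, and 1 by DESeq2, against 0.00566%, 0.0% and 1.16% of their tested genes. In edgeR 7 of the 25 had an unadjusted p under 0.05, as had 2132 of all 17658 tested genes. In DSS+UA against Con 1 of 25 was called, Cyp7b1, higher by 1.87 ± 0.48 (edgeR adjusted p = 0.0243), against 18.1% of all tested genes. That call was lost with limma-voom, without Con 2, Con 3 or DSS+UA 3, and with the position score, where Cyp7b1 differed by 1.64 ± 0.63 (edgeR adjusted p = 0.107), whereas DESeq2 called 4 of 25 against 14.3% of its tested genes. Between the UA groups 5 were higher in UA+DSS and 0 lower, against 16.8% of all tested genes. Of those, Ugt1a1, a bilirubin glucuronosyltransferase, differed by 4.72 ± 1.12 (edgeR adjusted p = 0.0209), Nr5a2 by 1.30 ± 0.33 (0.0257) and Cyp3a13, a cytochrome enzyme, by 2.51 ± 0.70 (0.0359). None of the 25 was called between the UA groups with the position score, where Ugt1a1 differed by -0.24 (edgeR adjusted p = 0.961), Nr5a2 by 0.83 (0.605) and Cyp3a13 by 0.31 (0.937), nor without UA+DSS 2 or without DSS+UA 1. In those fits, in that order, 0.0%, 3.07% and 9.31% of all tested genes were called. Ugt1a1 shares its last exons with other genes of its cluster, so its count is uncertain. For the position score 0 of 25 were called by edgeR and limma-voom, and 6 by DESeq2, against 1.27%, 1.84% and 4.0% of their tested genes. In edgeR 6 of the 25 had an unadjusted p under 0.05, as had 3272 of all 17658 tested genes.

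**Figure D4:**
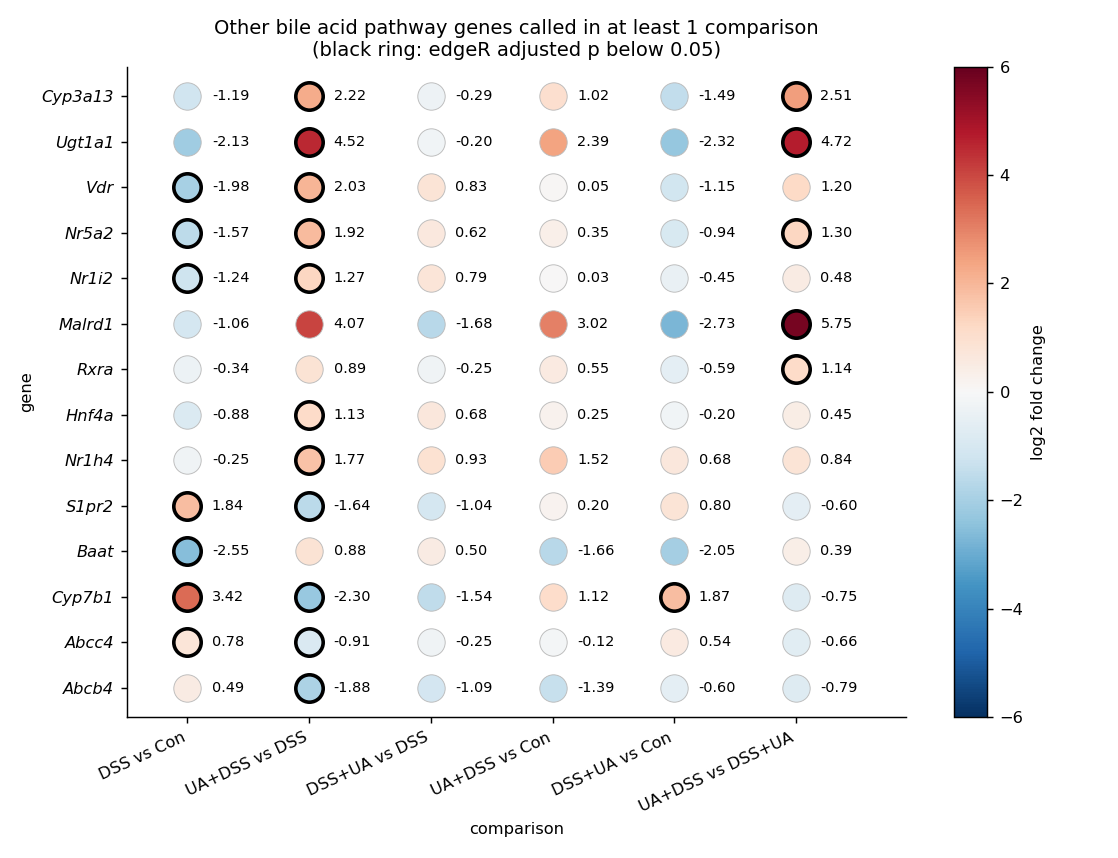
Log2 fold change, written beside each point, of the 14 other bile acid pathway genes called in at least 1 of the 6 comparisons. Colour gives the size and sign, and a black ring marks an edgeR adjusted p below 0.05; the regulators Nr5a2, Vdr and Nr1i2 are ringed as lower in DSS against Con and as higher in UA+DSS against DSS, and the column DSS+UA against DSS has no ring.

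Among all tested genes, those whose log2 CPM followed a member most closely over the 12 libraries differed from member to member. For Slc10a2 they were Akr1c18 (Pearson r = 0.923), Adh5 (0.91) and Chgb (0.904), and for Slc51a Vnn1 (r = 0.96), Hkdc1 (0.954) and Amn (0.95). For Slc51b they were Ildr1 (r = 0.959), Znrf2 (0.946) and Pyroxd1 (0.938). Abcb1a was followed by Fam189a2 (r = 0.978), Ociad2 (0.974) and Isoc2a (0.974), and Abcc3 by Gpr160 (r = 0.975), Tmem8 (0.971) and Nudt22 (0.969). Abcb1b was followed by Limk1 (r = 0.976), Rasa3 (0.975) and Ms4a4a (0.963). Among the members, Slc51b and Abcc3 had r = 0.887 and Abcb1a and Abcc3 r = 0.857, whereas the subunits Slc51a and Slc51b had r = 0.504 and the paralogs Abcb1a and Abcb1b r = -0.65. These are descriptions over 12 libraries that share groups, position and depth, so they carry no test.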

How the data were processed

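Total RNA of the colon of 12 mice, 3 in each group, was sequenced. Groups were taken from the sample labels. The authors deposited 1 table of whole-number counts per gene and library. The labels name FastQC, HISAT2 and Cuffdiff and the build GRCm38, and the methods credit the read counts to HISAT2; versions, the gene annotation and the strand setting of the counts were not given in the sources used here, and labels and methods name different RNA kits. Gene names, coordinates and exon lengths were taken from the GENCODE annotation of GRCm38. Each table held 54532 genes, of which 37 had no name in the annotation (0.0036% of counts). No pair of libraries was identical. Libraries held 15566216 to 19498383 counts; intervals and floors cover counting error only.

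The deposited counts were filtered with filterByExpr, scaled by TMM (factors 0.871 to 1.09) and fitted in 1 model over all 4 groups with the quasi-likelihood test of edgeR 4.0.16 (R 4.3.3). Genes with a Benjamini-Hochberg adjusted p below 0.05 over all 17658 genes tested were called. The SE is the fold change divided by the square root of its F statistic. CPM are counts scaled to an effective library of 1000000, and log2 CPM used a prior count of 2. The position score entered a second fit as a covariate. The sources used here do not say how the mice were caged, and DSS was given in the drinking water. The p-values treat each mouse as independent, and an effect of cages that follow the groups could not be told apart from the groups. Fits were tested on simulated counts.

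Alternatives were library size alone, upper-quartile and RLE factors, no filter, at least 10 counts in every sample, 2-group fits, a replicate block, each library left out, limma 3.58.1 and DESeq2 1.42.0. Leaving out DSS 2 and DSS+UA 3 together was added after seeing the data. Same-numbered mice did not vary together (in none of the 6 comparisons were all 3 correlations over 0.1), so the block is an alternative only. Members, gene lists, motifs and the position score were chosen with earlier results of these data known. All 10 members were named, with up to 3 called pathway genes of smallest p per comparison and the 3 genes of highest Pearson r with each called member. Other genes in the pathway plot are all those called. A gene of the pathway list is not reported here. Tables and plots used Python 3.11.15, pandas 2.3.3 and matplotlib 3.10.9.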

Additional observations from a re-analysis of the deposited data

Results flagged for a closer look

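UA+DSS and DSS+UA differed for 3 members by the edgeR test between them. The start of UA, the length of dosing and the colon position score differed together between these groups and cannot be told apart. Abcb1a differed by 3.13 ± 0.56 on the log2 scale (edgeR adjusted p = 0.00826), with 3 of 3 UA+DSS libraries above all DSS+UA libraries. Slc10a2 differed by 3.45 ± 0.62 (edgeR adjusted p = 0.00874) and Slc51a by 6.76 ± 1.90 (edgeR adjusted p = 0.0365), each with 3 of 3 libraries above. The colon position score differed between the same groups, at -5.70 to -4.16 in UA+DSS and 4.12 to 5.06 in DSS+UA, and with the score as a covariate none of the 3 passed, the adjusted p being 0.456, 0.426 and 0.957 in that order.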

How the results depend on the processing

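Of 817 refits of 36 member differences given above, 763 kept their direction and their side of the threshold, 31 lost and 14 gained the call, and 9 reversed. With the position score as a covariate Slc51a turned to -0.34 in UA+DSS against DSS and to -0.90 in UA+DSS against DSS+UA, and Abcc3 to -0.056 in the latter; Abcc2 in DSS against Con turned to -1.26 without DSS 2 (its range with 1 library left out was -1.26 to 2.85) and also without both libraries that held small intestine transcripts. Abcb1a in DSS+UA against DSS turned to 0.203 with the score and 0.367 without DSS 3, and in UA+DSS against Con to -0.404 with the score and -0.109 without UA+DSS 2, with ranges of -0.69 to 0.367 and -0.109 to 0.69 over the libraries left out. None of these 9 values passed. The difference of Fabp6 between the UA groups was not among the 36. It also reversed with the score, from -1.68 to 1.91 (edgeR adjusted p = 0.654). The cause was not tested.

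With the position score, 0 members were called between the UA groups, in UA+DSS against DSS or in DSS+UA against DSS. In that order 0.0%, 0.017% and 1.13% of all tested genes were called. DESeq2 called 2 members in DSS+UA against DSS, 1 in UA+DSS against Con and 3 in DSS+UA against Con, against 9.64%, 1.16% and 14.3% of its tested genes. The 2-group fit called 2 members in DSS+UA against Con, against 12.3% of its tested genes. Without both libraries that held small intestine transcripts 0 members were called in DSS+UA against DSS and 1 for the position score, against 0.0886% and 3.21% of all tested genes.

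Leaving out 1 library at a time gave 2 to 3 called members in DSS against Con, where 15.8% to 25.7% of all tested genes were called. It gave 1 to 6 in UA+DSS against DSS (1.0% to 22.7% of all tested genes), 0 to 1 in DSS+UA against DSS (0.137% to 10.1%) and 0 to 1 in UA+DSS against Con (0.0% to 0.0219%). It gave 1 to 2 in DSS+UA against Con (5.81% to 22.4%), 2 to 3 between the UA groups (3.07% to 21.5%) and 0 for the score (0.00552% to 4.26%). Without UA+DSS 2, Slc10a2 was the 1 member called in UA+DSS against DSS (edgeR adjusted p = 0.039), where 1.0% of all tested genes were called. In that fit Abcb1b had 0.0508, Abcb1a 0.0581, Slc51b 0.0659 and Abcc3 0.0674. The call of Abcb1b in DSS+UA against DSS was lost without DSS 2 (0.0607), DSS+UA 2 (0.0756) or DSS+UA 3 (0.104). In such fits the smaller group is assumed to vary like the others.

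With a replicate block, 2 members were called in DSS against Con (Abcc3 lost, 0.0537), where 24.8% of all tested genes were called. That fit called 6 in UA+DSS against DSS (Slc51a gained, 0.0362), against 17.8% of all tested genes. It called 1 in DSS+UA against DSS (3.13%), 0 in UA+DSS against Con (0.00566%) and 1 in DSS+UA against Con (16.5%). Between the UA groups it called 3, and 2998 of all 17658 tested genes. For the score it called 0, against 0.0623% of all tested genes. Gpbar1, with 3 to 22 counts per library, and Fgf15 were limited by depth.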
